A study of Mus musculus with 12 samples.

Results

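Collagen genes made up 39 of the 17397 genes in the deposited table of mouse heart RNA. A gene was taken as a member when its symbol had the form of a collagen chain (Col, a number, a, a number) and it had at least 1 count in 6 or more of the 12 libraries. Of the 43 rows with such a symbol, Col9a1, Col10a1, Col11a1 and Col19a1 missed that minimum. The members were sorted by the kind of structure their protein builds into 10 fibrillar collagens, 8 basement membrane collagens and 21 other collagens.

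The hearts came from male C57BL/6J mice of wild-type genotype, 8 weeks old at the start, in 4 groups of 3 libraries. Tumour mice were untrained, and 100000 cells of B16F10, a mouse melanoma line, were injected into their tail vein from week 2 as a model of cancer cachexia. Tumour trained mice were injected in the same way and ran on a treadmill on 5 days a week for 4 weeks, with sessions of 35 min at 12 m/min, each opened by 5 min at 6 m/min, after an adaptation week. Trained mice ran without melanoma cells, and control mice were untrained and carry the treatment label saline. A single melanoma line given by vein limits what the tumour groups model, and the labels say neither which organs held melanoma nor whether each library was a separate mouse. The p-values therefore measure the spread between these libraries, which may be technical.

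Collagens are built from chains wound into a triple helix, and the kind of chain sets the structure. Fibrillar collagens assemble into the cable-like fibrils that carry tension, type IV collagens form the sheet-like network of basement membranes around vessels and muscle cells, and the others link, coat or anchor these structures. In the heart, fibroblasts are the main source of fibrillar types I and III, while endothelial cells, mural cells and cardiomyocytes are surrounded by basement membrane. Scar formation in the heart is known for a rise of types I and III.

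The tumour libraries did not form a uniform group. Library totals ranged from 8843909 to 13344847 counts, and 3 counts corresponded to 0.179 to 0.353 CPM. Levels below are CPM, counts relative to the library total, scaled between libraries by the trimmed mean of M values (TMM). The summed level of 5 melanocyte lineage markers (Sox10, Pmel, Tyrp1, Dct and Mlana) was 8636 CPM in tumour 1, 4481 CPM in tumour 2 and 17.5 CPM in tumour 3, against 5.49 to 9.05 CPM in tumour trained, 7.02 to 7.53 CPM in trained and 6.41 to 10.8 CPM in control hearts. Cardiomyocyte markers, led by Myh6, summed to 19743, 53738 and 100033 CPM in the same order, against 103010.0 to 108863 CPM in control hearts. Results on the tumour group are therefore given with tumour 1 and 2 and for tumour 3 alone. In these bulk samples, fewer cells of a type and less RNA per cell cannot be told apart.

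Basement membrane type IV chains were the most abundant collagens in control hearts per length of transcript. Col4a1 and Col4a2, the chains of the widespread type IV network, had levels of 109 and 78.5 CPM per kb of exon. They were followed by the fibrillar Col3a1 (38.2 CPM per kb), the beaded-filament chain Col6a1 (27.1), the type I chain Col1a2 (24.7), Col15a1 (22.4), the other type I chain Col1a1 (18.7) and Col6a2 (17.7). All other members were at 6.55 CPM per kb or less. Not scaled to length, 8 members averaged at least 100 CPM, 16 at least 10 CPM and 29 at least 1 CPM in control hearts. Col4a1 and Col4a2 together held 46.4% to 55.1% of the summed collagen CPM in each of the 9 libraries outside the tumour group.

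A total of 29 members passed the filter on low counts in each of the fits, 8 fibrillar, 8 basement membrane and 13 other. The 10 that failed were Col8a2, Col26a1, Col9a2, Col9a3, Col25a1, Col17a1, Col7a1, Col6a5, Col2a1 and Col24a1. None of these exceeded 0.862 CPM in the 9 libraries outside the tumour group. In tumour 1, the cartilage collagen chains Col2a1 and Col9a3 reached 2.15 and 1.68 CPM, and Col7a1, the anchoring fibril chain of skin, reached 1.68 CPM.

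**Figure D1:**
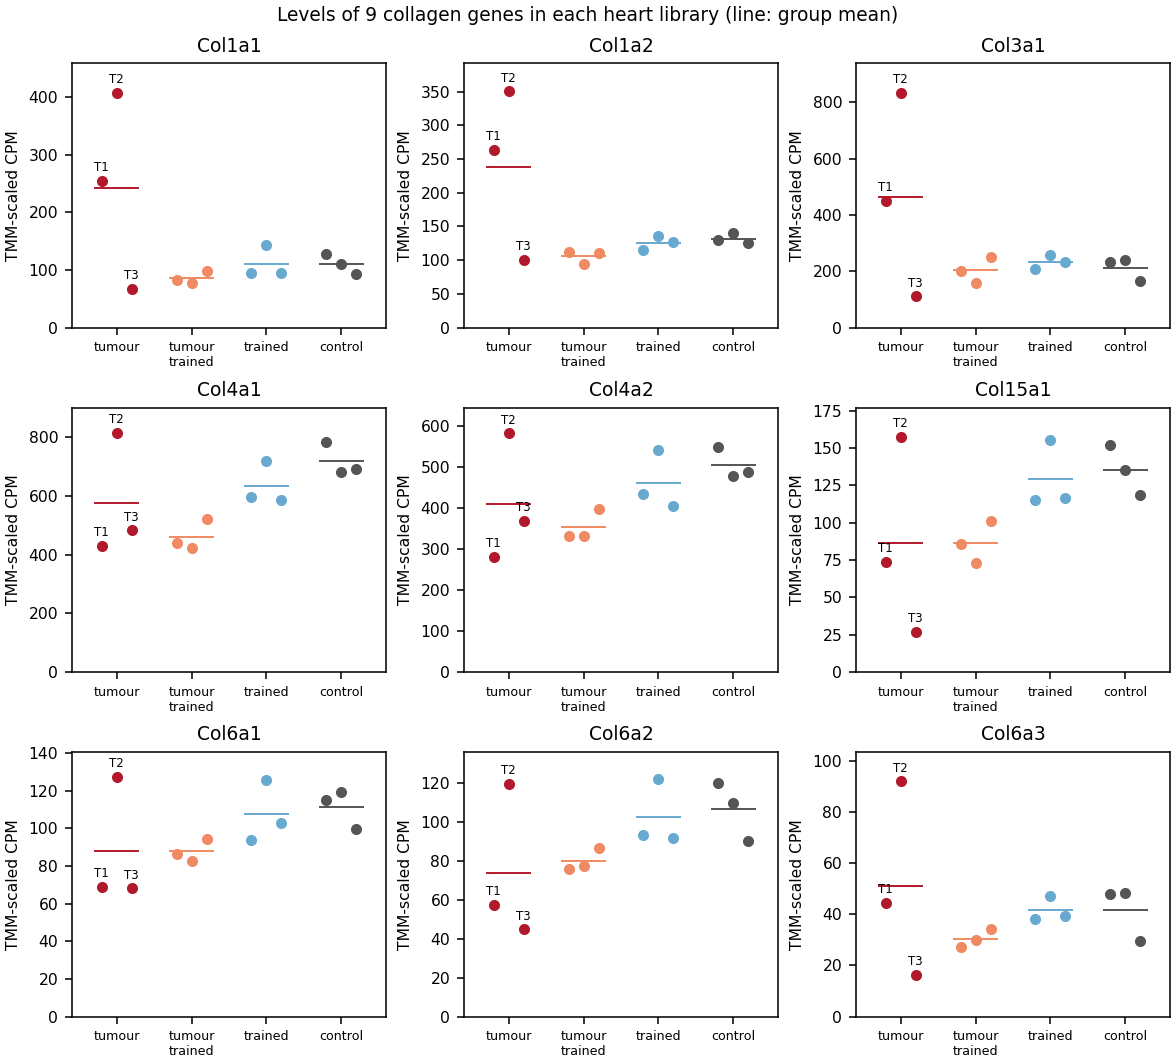
TMM-scaled CPM (y axis, from 0) of 9 abundant collagen genes in each heart library, by group, with a line at the group mean. Points are libraries, and T1 to T3 mark the tumour libraries. Col3a1 was at 112 CPM in tumour 3, far under tumour 1 and 2 at 450.0 and 834 CPM, while Col15a1 was at 27.1 CPM in tumour 3.

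Untrained tumour hearts were compared with untrained control hearts to ask how melanoma alone alters the heart. For 10 of the 29 collagens tested, 5 of them fibrillar, tumour 1 and 2 lay above every control and tumour 3 below. In the fit of all 12 libraries, Col12a1 was the collagen that passed the test, 1 of 29, against 6.79% of all 12778 genes tested. The median log2 difference was 0.73 for the 8 fibrillar, -0.31 for the 8 basement membrane and -0.20 for the 13 other collagens, beside 0.11 for all genes tested. With 1 library left out, the fibrillar median ran from 0.42 without tumour 2 to 1.06 without tumour 3, the basement membrane one from -0.65 without tumour 2 to -0.16 without tumour 1, and that of the others from -0.23 without tumour 2 to 0.07 without control 2. The last changed sign only there among the 12 libraries left out in turn, and was between -0.07 and -0.03 without tumour 3 or any trained or tumour trained library and -0.14 without control 3. When only library size was used for scaling, the median of all genes moved to 0.32.

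The class sums show the split. Fibrillar collagens summed to 1163, 1893 and 359 CPM in tumour 1, 2 and 3, against 628, 630.4 and 501 CPM in control 1, 2 and 3. Tumour 1 and 2 were thus above every control, and tumour 3 was below every control. Basement membrane collagens summed to 849, 1657 and 927 CPM in tumour 1, 2 and 3, against 1553, 1364 and 1368 CPM in control hearts. In that class tumour 1 and 3 were low and tumour 2 was high. The other collagens summed to 316, 486 and 178 CPM in tumour hearts, against 349.8, 351 and 276 CPM in control hearts.

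**Figure D2:**
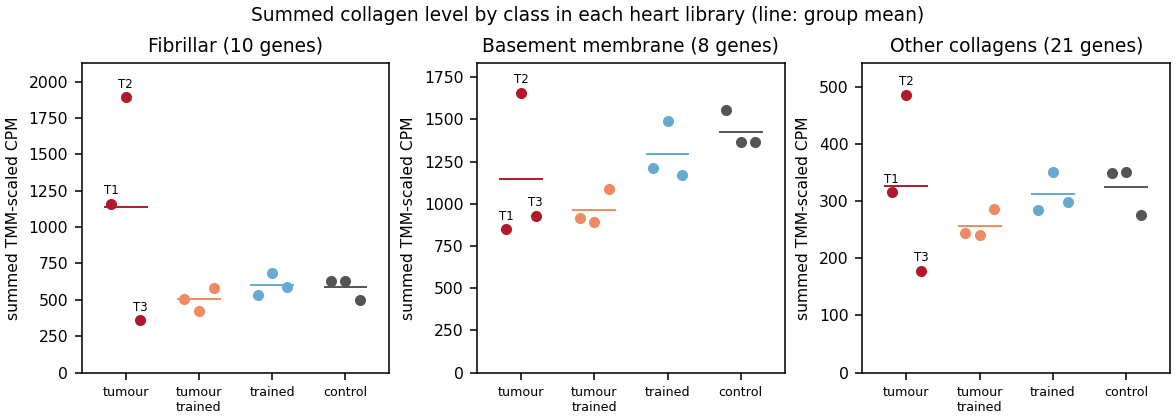
Summed TMM-scaled CPM (y axes, from 0) of the 10 fibrillar, 8 basement membrane and 21 other collagens in each heart library, by group, with a line at the group mean. Fibrillar sums were 1163, 1893 and 359 CPM in tumour 1, 2 and 3, and basement membrane sums of the tumour trained hearts (889.7 to 1088 CPM) lay below those of trained and control hearts.

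Fibrillar collagens took a larger part of the collagen RNA in tumour 1 and 2. They held 50.0% and 46.9% of the summed collagen CPM there and 24.5% in tumour 3, against 23.4% to 30.2% in the 9 other libraries. Of the 29 tested collagens, 10 (34.5%) were above every control in both tumour 1 and tumour 2, beside 38.4% of all genes tested. Each of these 10 was below every control in tumour 3, a pattern seen in 9.59% of all genes. They were the fibrillar Col1a1, Col1a2, Col3a1, Col5a1 and Col5a2, the basement membrane collagen Col18a1, and Col8a1, Col12a1, Col14a1 and Col16a1. Another 6 were below every control in both tumour 1 and tumour 2, namely Col4a3, Col4a6, Col13a1, Col20a1, Col22a1 and Col23a1, beside 30.1% of all genes.

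Among the fibrillar chains, Col1a1, which with Col1a2 makes type I collagen, was at 254, 408 and 67.6 CPM in tumour hearts, against 128, 111 and 93.0 CPM in control hearts. Its log2 fold change was 1.14 ± 0.46 (SE, edgeR adjusted p = 0.115). Col1a2 was at 264, 350.3 and 100.4 CPM in tumour hearts, against 130.0, 140.3 and 125 CPM in control hearts (log2 0.85 ± 0.33, adjusted p = 0.103). Col3a1, the single chain of type III collagen, was at 450.0, 834 and 112 CPM in tumour hearts, against 234, 239 and 164 CPM in control hearts (log2 1.13 ± 0.51, adjusted p = 0.141). For each of these genes the tumour and control groups overlapped because tumour 3 lay below the controls. Col5a1 and Col5a2, chains of the type V collagen that starts fibrils, had log2 differences of 0.60 ± 0.40 and 1.07 ± 0.42 (adjusted p = 0.277 and 0.107), and Col5a3 had -0.22 ± 0.22 (adjusted p = 0.463).

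Among the other collagens, Col12a1 and Col16a1 were far above the controls in tumour 1 and 2. Col12a1, which coats fibrils, was at 16.7, 10.6 and 1.38 CPM in tumour hearts, against 1.53, 1.65 and 1.47 CPM in control hearts. It rose by 2.62 ± 0.65 on the log2 scale (SE; adjusted p = 0.0440 in edgeR), but was -0.15 with tumour 3 as the tumour sample (adjusted p = 0.943). Its call was also lost when any 1 of the other 11 libraries than tumour 3 was left out (edgeR adjusted p up to 0.152). In those fits 0.03% to 1.55% of all genes were called. Col16a1, another fibril-associated collagen, was at 47.6, 35.0 and 7.94 CPM in tumour hearts, against 9.57, 9.25 and 9.25 CPM in control hearts (log2 1.69 ± 0.49, adjusted p = 0.0574). Col8a1, a short-chain collagen of vessel walls, was at 45.6, 52.0 and 8.12 CPM in tumour hearts, against 16.5, 16.4 and 12.6 CPM in control hearts (log2 1.22 ± 0.51, adjusted p = 0.124). Both genes were high in tumour 1 and 2 and below every control in tumour 3. Col14a1 had a log2 difference of 0.52 ± 0.34 (adjusted p = 0.280).

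Basement membrane collagens varied in both directions. Col4a3, a chain of the type IV network best known from kidney, was at 1.14, 2.78 and 2.22 CPM in tumour hearts, against 4.31, 4.67 and 4.84 CPM in control hearts. The groups did not overlap (log2 -1.18 ± 0.32, adjusted p = 0.0510), as was the case for 4 collagens, all lower (13.8%, beside 11.8% of all genes tested). The other 3 were Col4a6, Col20a1 and Col23a1, the last a membrane-spanning collagen with a log2 difference of -0.74 ± 0.33 (adjusted p = 0.139). Col18a1, whose cut end is the angiogenesis inhibitor endostatin, was at 27.4, 48.6 and 10.6 CPM in tumour hearts, against 17.1, 16.2 and 16.2 CPM in control hearts (log2 0.81 ± 0.40, adjusted p = 0.173). Col4a1, Col4a2, Col4a4, Col4a5 and Col15a1 had log2 differences of -0.32, -0.30, -0.13, -0.21 and -0.65 (adjusted p = 0.296 to 0.631). Among the chains of type VI collagen, the beaded filaments around cells, Col6a1, Col6a2 and Col6a3 had -0.34, -0.53 and 0.28 (adjusted p = 0.217 to 0.649), and Col6a6, at 0.718 CPM in tumour 1 against 5.05 to 8.90 CPM in control hearts, had -0.85 ± 0.55 (adjusted p = 0.273).

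The number of collagens that passed depended on tumour 3. Without tumour 3, 11 collagens were higher and 2 were lower of 30 tested, beside 53% of all genes in either direction. The 11 higher were Col1a1, Col1a2, Col3a1, Col5a1, Col5a2, Col7a1, Col8a1, Col12a1, Col14a1, Col16a1 and Col18a1, and the 2 lower were Col4a3 and Col13a1. Without tumour 1, or without tumour 2, no collagen passed, beside 1.55% and 0.0467% of all genes. Markers of most other cells moved in tumour 1 and 2. Fibroblast markers there summed to 362 and 980.0 CPM, against 1696 to 1764 CPM in control hearts. Of these 8 markers, 6 and 4 were below every control, and 2 were above in tumour 2. Macrophage markers summed to 279.6 CPM in tumour 1, within the 237 to 298 CPM of control hearts, with 1 of 6 above every control and 1 below. In tumour 2 they summed to 423 CPM, with 6 of 6 above every control. In tumour 1 and 2, endothelial markers had sums of 333 and 869 CPM (1284 to 1320.0 CPM in control hearts), with 7 of 7 below every control in both. Smooth muscle and pericyte markers summed to 476 and 971 CPM, against 1300.3 to 1539 CPM, with 9 and 6 of 9 below every control and 1 above in tumour 2. Of all genes tested, 30.1% were below every control in both libraries and 38.4% were above in both. The share for either library alone was not computed. The part of melanoma RNA and of these cell types in the collagen levels was not tested.

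**Figure D3:**
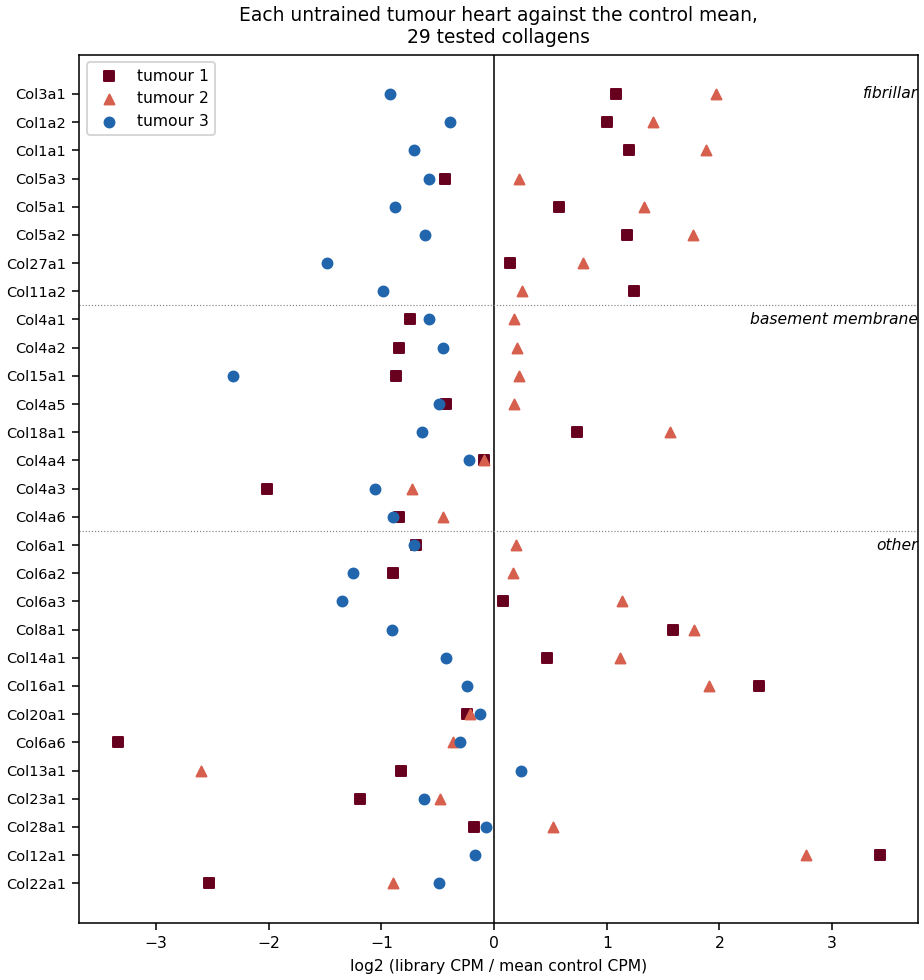
Log2 ratio of each tumour library's CPM to the mean CPM of the 3 control hearts (x axis) for the 29 tested collagens (rows, by class), with 1 symbol per tumour library. The fibrillar genes Col1a1, Col1a2, Col3a1, Col5a1 and Col5a2 lie right of 0 in tumour 1 and 2 and left of 0 in tumour 3.

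Tumour 3, whose melanocyte markers summed to 2.18 times the control mean with all 5 above every control, was compared with the control hearts in a fit of the 10 libraries without tumour 1 and 2. As a single library it was assumed to vary like the other groups. Pairs of tumour libraries differed by a chi-square per gene of 103 to 369.5, against 3.67 to 31.2 for pairs within the other groups. Every alternative fit of this comparison kept tumour 3, so none could show how another untrained tumour heart would vary. Collagens of each class were low in this heart: 28 of 29 fitted differences were below 0, and 24 of 29 levels (82.8%) were under every control, beside 29% of all 12995 genes tested. The median log2 difference was -0.78 for fibrillar, -0.59 for basement membrane and -0.42 for other collagens, beside 0.02 for all genes. Col15a1, Col6a2 and Col6a3 fell (3 of 29, beside 0.531% of all genes lower), and no collagen rose. At an unadjusted p below 0.05, 17 collagens were lower and 0 higher, beside 6.08% and 6.82% of all genes.

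Col15a1, a basement membrane collagen that ties the membrane to the fibrils beneath it and is known in mice to matter for heart and muscle vessels, was at 27.1 CPM in tumour 3, against 152, 135 and 119 CPM in control hearts. It fell by 2.31 on the log2 scale (SE 0.26, edgeR adjusted p = 0.00148). Its fitted difference ran from -2.39 to -2.22 over the 17 alternatives run for it, each of which kept the same tumour 3 library. Tumour 1 and 2, at 74.0 and 157 CPM, lay on either side of the control range.

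Type VI chains were also low in tumour 3. Col6a2 was at 44.8 CPM in tumour 3, against 120.0, 109.5 and 90.2 CPM in control hearts, and fell by 1.24 on the log2 scale (SE 0.21, adjusted p = 0.0175). Col6a3, the chain that carries the cleaved peptide endotrophin, was at 16.4 CPM in tumour 3, against 47.9, 48.4 and 29.4 CPM in control hearts, and fell by 1.34 (SE 0.28, adjusted p = 0.0479). Col6a1 was at 68.0 CPM, against 115, 119 and 99.6 CPM in control hearts (log2 -0.70 ± 0.18, adjusted p = 0.103). The Col6a2 call held in 15 of 17 alternatives (adjusted p up to 0.0867) and, of the libraries left out in turn, was lost without control 2 (0.0573). The Col6a3 call was lost without control 1, control 2, trained 1, trained 3 or any tumour trained library, and adjusted p over its 17 alternatives ran from 5.07e-04 to 0.170.

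The bases upstream of these 3 genes are shown because they were the collagens that fell in tumour 3. Each is the 250 bases before the annotated RefSeq start on the coding strand of GRCm38.p6, at chr4:47207762-47208011 (plus strand) for Col15a1, chr10:76623631-76623880 (minus strand) for Col6a2 and chr1:90843972-90844221 (minus strand) for Col6a3. For Col6a2 the RefSeq table also holds a second start, whose window is not shown because 226 of its bases lie in annotated Col6a2 exons, and which holds 3 GC boxes. Capitals mark a GC box, searched as GGGCGG on both strands.
Col15a1: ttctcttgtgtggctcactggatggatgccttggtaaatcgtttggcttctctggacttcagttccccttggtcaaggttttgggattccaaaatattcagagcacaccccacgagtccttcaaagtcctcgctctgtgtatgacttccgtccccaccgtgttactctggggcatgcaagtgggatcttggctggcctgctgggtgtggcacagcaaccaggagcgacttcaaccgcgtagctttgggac
Col6a2: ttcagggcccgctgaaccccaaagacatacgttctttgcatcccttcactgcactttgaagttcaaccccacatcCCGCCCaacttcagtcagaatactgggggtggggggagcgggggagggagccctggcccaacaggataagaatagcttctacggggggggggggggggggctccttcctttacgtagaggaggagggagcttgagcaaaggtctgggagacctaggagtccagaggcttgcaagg
Col6a3: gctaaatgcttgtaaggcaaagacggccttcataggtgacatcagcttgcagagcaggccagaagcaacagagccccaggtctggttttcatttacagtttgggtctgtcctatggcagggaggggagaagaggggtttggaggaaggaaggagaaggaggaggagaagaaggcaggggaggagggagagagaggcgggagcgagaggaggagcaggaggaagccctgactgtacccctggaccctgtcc
The GC box was in 32.7% of 32851 such mouse windows, and neither TATAAA (12.4% of windows) nor CCAAT (33.8%) was in these 3. Of the 30 members with an entry, 19 had a window with a GC box, 4 with TATAAA and 10 with CCAAT. These are counts of genes with a match in any of their windows, so they cannot be set against the shares of windows. A match is a description of the letters, not a measured site.

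The remaining collagens of tumour 3 differed from the controls in size rather than direction. Col27a1, a fibrillar collagen of cartilage, was at 1.57 CPM, against 4.12, 3.70 and 5.36 CPM in control hearts (log2 -1.46 ± 0.35, adjusted p = 0.0744). Col3a1, Col1a1 and Col1a2 had log2 differences of -0.92 ± 0.27, -0.70 ± 0.26 and -0.38 ± 0.15 (adjusted p = 0.138, 0.263 and 0.282). Col5a1, Col5a2 and Col5a3 had -0.87, -0.61 and -0.57 (adjusted p = 0.107 to 0.294). Of the type IV chains, Col4a1, Col4a2, Col4a3, Col4a4 and Col4a5 had -0.56, -0.44, -1.04, -0.21 and -0.47 (adjusted p = 0.148 to 0.830), and Col18a1 had -0.62 (adjusted p = 0.316). Col8a1, Col14a1 and Col12a1 had -0.89, -0.42 and -0.15 (adjusted p = 0.338 to 0.943). The 1 collagen with a fitted difference above 0 was Col13a1, at 2.49 CPM in tumour 3 against 1.91 to 2.34 CPM in control hearts, 1 of 29 above every control beside 31.8% of all genes.

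The number of collagens called in tumour 3 changed with the libraries kept. It was 11 without trained 2 (beside 5.8% of all genes), 6 with DESeq2 (2.48%), and 1, Col15a1, without control 2 (0.665%). It was 2 without control 1 (1.55%), trained 1 (1.21%), trained 3 (1.23%) or any tumour trained library (0.972% to 1.02%), and in a fit of tumour 3 and the controls only (1.65%). In tumour 3, fibroblast markers summed to 1474 CPM, against 1696 to 1764 CPM in control hearts, with 4 of 8 below every control, 1 above and none at 0. Endothelial markers summed to 1149 CPM, against 1284 to 1320.0 CPM, with 5 of 7 below every control, 1 above and none at 0, and smooth muscle and pericyte markers to 1268 CPM, against 1300.3 to 1539 CPM, with 5 of 9 below every control and none above. Macrophage markers summed to 228 CPM, against 237 to 298 CPM, with 4 of 6 below every control. Of all genes tested, 29% were below every control in tumour 3 and 31.8% were above. As ratios to the control mean, these 4 marker lists were at 0.85, 0.88, 0.91 and 0.86 in the order given. Erythroid markers were at 1.79 and adipocyte markers at 0.31. The fibrillar, basement membrane and other collagen sums were at 0.61, 0.65 and 0.55. The adipocyte sum in tumour 3 was 0.185 CPM with 2 of 4 markers at 0, below the 0.277 CPM of 3 counts in that library. Erythroid sums varied widely, at 1997 CPM in tumour 3, 615 to 1649 CPM in control and 878 to 3145 CPM in tumour trained hearts. The part of these cell types in the collagen levels was not tested.

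Ratios between chains within a library do not depend on the scaling between libraries. The ratio of Col15a1 to Col18a1 counts, the 2 members of the multiplexin subgroup, was 2.70, 3.24 and 2.56 in tumour 1, 2 and 3. In the 9 other libraries it was 7.26 to 8.88, so the tumour libraries lay apart from all of them. Relative to the control mean, Col15a1 was at 0.55, 1.16 and 0.20 and Col18a1 at 1.66, 2.95 and 0.64 in tumour 1, 2 and 3. The ratio of Col6a3 to Col6a1, chains that join in 1 molecule, was 0.64 and 0.72 in tumour 1 and 2 and 0.24 in tumour 3, against 0.30 to 0.42 in the other groups. Col6a1 to Col6a2, neighbours on chromosome 10, was 1.20, 1.06 and 1.52 in tumour 1, 2 and 3, against 0.96 to 1.14 in the other groups.

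Ratios of network and fibril chains were taken in the same way. Col4a1 to Col4a2, neighbours on chromosome 8, was 1.52, 1.40 and 1.31 in tumour 1, 2 and 3, against 1.27 to 1.44 in the other groups. Col1a1 to Col1a2 was 0.96, 1.16 and 0.67, against 0.74 to 1.05. Col3a1 to Col1a1 was 1.77, 2.04 and 1.65, against 1.77 to 2.56. Col4a3 to Col4a4, which share a network and neighbour each other on chromosome 1, was 0.15, 0.37 and 0.32, against 0.36 to 0.62, so tumour 1 and 3 were under all 9 other libraries. No ratio was tested, since ratios were chosen with the levels in view.

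**Figure D4:**
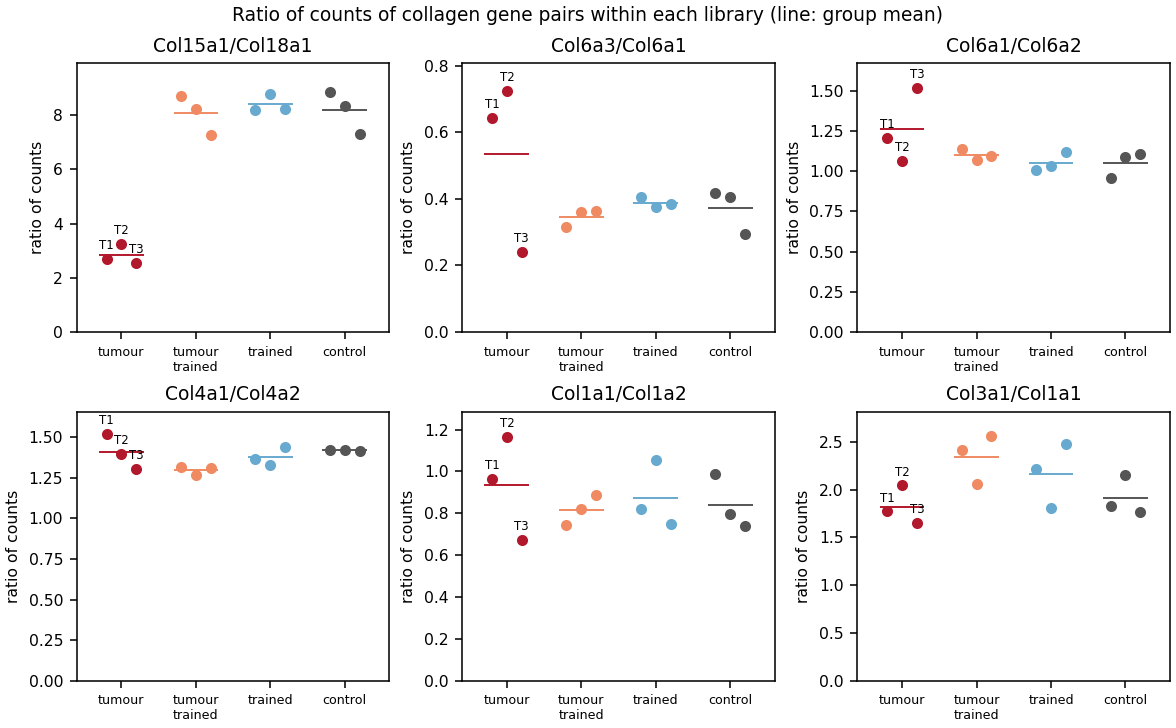
Ratio of estimated counts of 6 pairs of collagen genes within each library (y axes, from 0), by group, with a line at the group mean. Col15a1 to Col18a1 was 2.56 to 3.24 in the 3 tumour libraries and 7.26 to 8.88 in the other 9, while Col6a3 to Col6a1 was above the other groups in tumour 1 and 2 and below them in tumour 3.

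Tumour trained hearts were compared with untrained tumour hearts to ask what training changed under melanoma. The answer for fibrillar and fibril-associated collagens was set by tumour 1 and 2. In the fit of 12 libraries, Col12a1, Col16a1 and Col1a2 fell (3 of 29, beside 7.25% of all genes lower and 9.05% in either direction), and no collagen rose, beside 1.79% of all genes. At an unadjusted p below 0.05, 9 collagens were lower and 1 was higher, beside 21.6% and 10.2% of all genes. Median log2 differences were -1.02 for fibrillar, 0.06 for basement membrane and 0.00 for other collagens, beside -0.04 for all genes.

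Col12a1 was at 0.950, 0.755 and 1.26 CPM in tumour trained hearts, against 16.7, 10.6 and 1.38 CPM in tumour hearts, and fell by 3.26 on the log2 scale (SE 0.68, adjusted p = 0.0357). Col16a1 was at 6.76, 6.15 and 11.3 CPM in tumour trained hearts, against 47.6, 35.0 and 7.94 CPM in tumour hearts, and fell by 1.91 (SE 0.50, adjusted p = 0.0413). Col1a2 was at 112, 94.7 and 110.4 CPM in tumour trained hearts, against 264, 350.3 and 100.4 CPM in tumour hearts, and fell by 1.17 (SE 0.33, adjusted p = 0.0498). Against tumour 3 alone the same log2 differences were -0.49, 0.01 and 0.06. No collagen passed when any 1 library other than tumour 3 or trained 2 was left out, beside 0.0225% to 0.864% of all genes. Without trained 2, Col12a1 passed, beside 9.34% of all genes. Without tumour 3, 12 collagens were lower and Col4a3 was higher of 30, beside 28.1% and 21.7% of all genes.

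Of the other fibrillar chains, Col1a1, Col3a1, Col5a1, Col5a2 and Col5a3 had log2 differences of -1.50, -1.19, -0.87, -1.18 and -0.38 in tumour trained against tumour hearts (adjusted p = 0.0628 to 0.243). Col18a1, Col14a1 and Col8a1 had -1.41, -0.95 and -1.07 (adjusted p = 0.0537 to 0.173). Col4a3 was at 4.43, 4.21 and 3.16 CPM in tumour trained hearts, above each of the tumour hearts at 1.14, 2.78 and 2.22 CPM (log2 0.95 ± 0.32, adjusted p = 0.0791). Such a gap between the groups was seen for 2 collagens in the higher direction, Col4a3 and Col20a1, and for Col12a1 in the lower one, 6.9% and 3.4% of those tested, beside 13.5% and 14.5% of all genes. Col4a1, Col4a2, Col4a4, Col4a5, Col15a1, Col6a1, Col6a2 and Col6a3 had differences between -0.74 and 0.28 (adjusted p = 0.265 to 0.996). Col6a6 and Col23a1 had 0.69 and 0.40 (adjusted p = 0.389 and 0.403).

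Set against tumour 3 alone, the tumour trained hearts differed most in Col15a1. Col15a1 was at 85.7, 72.9 and 101 CPM in tumour trained hearts, against 27.1 CPM in tumour 3, and was the collagen that rose (log2 1.66 ± 0.25, edgeR adjusted p = 0.0114), 1 of 29 beside 0.123% of all genes higher. None fell, beside 0.593% of all genes. Col27a1, at 5.07, 3.99 and 5.68 CPM against 1.57 CPM, had a log2 difference of 1.62 ± 0.35 (adjusted p = 0.0664), and Col8a1 had 1.03 ± 0.38 (adjusted p = 0.249). In 14 of 29 collagens (48.3%) every tumour trained heart was above tumour 3, beside 37% of all genes, and in 2 (6.9%), Col12a1 and Col13a1, every one was below it, beside 34.8%. Medians were 0.54 for fibrillar, 0.24 for basement membrane and 0.13 for other collagens, beside 0.00 for all genes. Collagens called were 8 without trained 2 (beside 11.8% of all genes in either direction) and 3 with DESeq2 (2.04%), and 9 in a fit of only these libraries (18.2%).

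The interaction, which asks whether the tumour difference was unlike in trained and untrained mice, called no collagen with edgeR, beside 0.0235% of all genes, and none with DESeq2. At an unadjusted p below 0.05 there were 5 collagens lower and 2 higher of 29, beside 11.2% and 3.22% of all genes. The largest fitted values among better measured genes were -3.17 ± 0.96 for Col12a1, -1.85 ± 0.70 for Col16a1 and -1.50 ± 0.65 for Col1a1 (adjusted p = 0.286, 0.302 and 0.333). In the other direction, Col4a3, Col6a6 and Col23a1 had 1.14, 0.87 and 0.47 (adjusted p = 0.307, 0.548 and 0.580). Without tumour 3, 11 collagens were lower and 1 was higher, beside 17.7% and 12.4% of all genes. Without tumour 1 and 2, the fitted interaction of Col15a1 was 1.72 on the log2 scale. It rests on the same single value of tumour 3 (27.1 CPM) as the comparisons with tumour 3, and is not a separate result.

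Tumour trained hearts were next set against control hearts. No collagen passed in the fit of the 9 libraries of tumour trained, trained and control hearts, beside 0.04% of all 12511 genes tested (0.024% higher and 0.016% lower). Of 29 fitted differences 24 were below 0, and 10 collagens (34.5%) were under every control in every tumour trained heart, beside 17.6% of all genes. None was above every control, beside 22.1% of all genes. The 10 were Col4a1, Col4a2, Col4a6, Col15a1, Col18a1, Col1a2, Col5a3, Col6a1, Col6a2 and Col12a1. At an unadjusted p below 0.05, 9 collagens were lower and 0 higher, beside 9.38% and 12.1% of all genes. Medians were -0.56 for basement membrane (-0.37 for its type IV chains alone), -0.34 for other and -0.19 for fibrillar collagens, beside 0.00 for all genes.

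Col4a1 was at 440.1, 421 and 523 CPM in tumour trained hearts, against 783, 680.3 and 693 CPM in control hearts (log2 -0.64 ± 0.11, edgeR adjusted p = 0.0995). Col4a2 was at 334, 333 and 398 CPM in tumour trained hearts, against 550.0, 479 and 489.7 CPM in control hearts (log2 -0.52 ± 0.12, adjusted p = 0.130). Col15a1, at 85.7, 72.9 and 101 CPM against 152, 135 and 119 CPM, had -0.65 ± 0.15 (adjusted p = 0.130). For each of these genes the groups did not overlap. The mean in tumour trained hearts differed from that in control hearts by -35.8% for Col4a1, -29.9% for Col4a2 and -36.1% for Col15a1.

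The type V chain Col5a3, at 23.2, 26.3 and 29.7 CPM in tumour trained hearts against 42.9, 40.5 and 36.9 CPM in control hearts, had a log2 difference of -0.61 ± 0.15 (adjusted p = 0.133). Col18a1 was at 9.82, 8.85 and 13.9 CPM in tumour trained hearts, against 17.1, 16.2 and 16.2 CPM in control hearts (log2 -0.61 ± 0.18, adjusted p = 0.135). Col1a2, Col6a2 and Col6a1 had -0.32, -0.42 and -0.34 (adjusted p = 0.149 to 0.169) with no overlap between the groups, and Col6a3 had -0.46 (adjusted p = 0.192) with overlap. Not every chain was low: Col3a1, Col5a2, Col4a4 and Col4a5 had -0.06, -0.11, 0.00 and 0.06, and the highest values among better measured genes were 0.16 for Col27a1 and 0.14 for Col8a1. Col1a1, Col5a1, Col4a3, Col12a1 and Col14a1 had -0.36, -0.28, -0.23, -0.65 and -0.43 (adjusted p = 0.243 to 0.515).

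These calls depended on the fit. DESeq2 called Col15a1, Col4a1, Col4a2 and Col5a3, all lower, beside 1.54% of all genes lower. A fit of only the tumour trained and control hearts called 8 collagens, all lower, beside 7.58% of all genes lower. Without trained 2, a library that is in neither group but enters the shared spread, 9 collagens were called, all lower, beside 8.66% of all genes lower. Trained 2 stood apart from trained 1 and 3 with a chi-square per gene of 29.0 and 31.2, against 4.20 between trained 1 and 3.

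Tumour trained hearts were also set against trained hearts, which share the training and differ in the melanoma cells. This comparison and the one with control hearts share the tumour trained libraries. No gene at all passed in edgeR, collagens included, and DESeq2 called Col5a3 among the collagens, beside 0.184% of all genes. At an unadjusted p below 0.05, 9 collagens were lower and 0 higher with edgeR, beside 4.03% and 3.05% of all genes. In 9 collagens (31%) every tumour trained heart was below every trained heart, beside 8.13% of all genes, and in none was it above, beside 7.91%.

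The 9 were Col4a1, Col4a2, Col4a4, Col15a1, Col18a1, Col1a2, Col5a3, Col6a2 and Col6a3. Col4a1 was at 440.1, 421 and 523 CPM in tumour trained hearts, against 596, 720.0 and 584 CPM in hearts of trained mice (log2 -0.46 ± 0.11, adjusted p = 0.478). Col5a3 was at 23.2, 26.3 and 29.7 CPM in tumour trained hearts, against 33.6, 50.1 and 42.8 CPM in hearts of trained mice (log2 -0.68 ± 0.15, adjusted p = 0.457). Col15a1, Col4a2, Col18a1, Col6a3, Col6a2 and Col1a2 had -0.58, -0.38, -0.50, -0.45, -0.36 and -0.26 (adjusted p = 0.491 to 0.618). Medians were -0.31 for basement membrane, -0.21 for fibrillar and -0.16 for other collagens, beside 0.00 for all genes. Col1a1, Col3a1, Col5a1, Col5a2, Col6a1, Col12a1 and Col14a1 were also below 0 with overlap, between -0.55 and -0.07, and Col4a3 and Col4a5 were at -0.03 and 0.00. The highest values among better measured genes were 0.10 for Col8a1 and 0.02 for Col20a1 and Col6a6.

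Endothelial markers were lower in the same hearts. They summed to 1108, 1083 and 1107 CPM in tumour trained hearts, against 1231 to 1264 CPM in trained and 1284 to 1320.0 CPM in control hearts, with 4 of 7 below every control, 2 of 7 below every trained heart and none above every control. Fibroblast markers summed to 1461 to 1604 CPM in tumour trained hearts, against 1416 to 1641 CPM in trained and 1696 to 1764 CPM in control hearts, with 2 of 8 below every control. Smooth muscle and pericyte markers summed to 1571, 1575 and 1606 CPM in tumour trained hearts, against 1136 to 1767 CPM in trained and 1300.3 to 1539 CPM in control hearts, with 5 of 9 below every trained heart, 3 of 9 below every control and 1 above. Of all genes tested, 17.6% lay below every control, 22.1% above every control and 8.13% below every trained heart in every tumour trained heart. As ratios to the control mean the endothelial, fibroblast, and smooth muscle and pericyte lists were at 0.84, 0.89 and 1.14. The basement membrane and fibrillar collagen sums were at 0.68 and 0.86. The part of these cell types in the collagen levels was not tested.

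**Figure D5:**
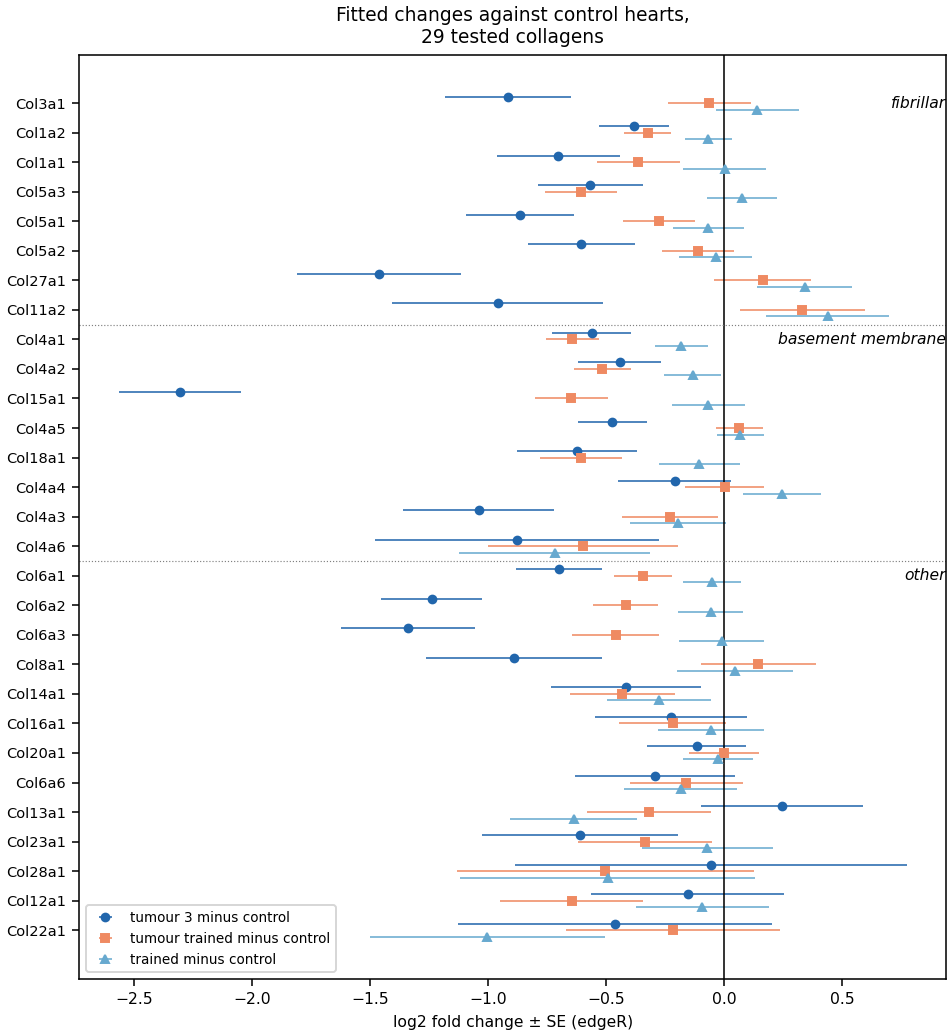
Fitted log2 fold change against control hearts (x axis, bars of 1 SE, edgeR) for the 29 tested collagens (rows, by class) in tumour 3, tumour trained and trained hearts, which share the control libraries. Col15a1 stands at -2.31 in tumour 3 and -0.65 in tumour trained hearts, and Col4a1 at -0.56 and -0.64.

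Training without melanoma was not accompanied by a called change of any collagen. None of the 29 passed in trained against control hearts with edgeR, beside 0.00799% of all genes, and none with DESeq2, beside 0.336%. At an unadjusted p below 0.05 there was 1 collagen, Col13a1, lower (beside 3.6% of all genes), and none higher (4.08%). Medians were 0.04 for fibrillar, -0.12 for basement membrane and -0.07 for other collagens, beside 0.01 for all genes. Col1a1, at 94.7, 143 and 95.0 CPM in trained hearts against 128, 111 and 93.0 CPM in control hearts, had a log2 difference of 0.00 ± 0.18. Col4a1, at 596, 720.0 and 584 CPM against 783, 680.3 and 693 CPM, had -0.18 ± 0.11 (adjusted p = 0.730). Both pairs of groups overlapped. Every trained heart was above every control for Col27a1 and Col11a2 and below for Col13a1 and Col4a6, 6.9% in each direction, beside 4.01% higher and 5.44% lower of all genes.

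The other main chains differed little in trained hearts, with log2 values of -0.07 for Col1a2, 0.14 for Col3a1, -0.13 for Col4a2, -0.07 for Col15a1, -0.11 for Col18a1, and -0.05, -0.06 and -0.01 for Col6a1, Col6a2 and Col6a3. Col5a1, Col5a2, Col5a3, Col4a5, Col8a1 and Col12a1 had -0.07, -0.04, 0.07, 0.07, 0.05 and -0.09. The largest values among better measured genes were -0.28 for Col14a1, -0.20 for Col4a3, 0.34 for Col27a1 and 0.24 for Col4a4 (adjusted p = 0.714 to 0.878). Without trained 2, no collagen passed either, although 11.9% of all genes did.

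Genes that make, join and break down collagen were taken from 7 lists. In tumour against control hearts, 2 of 18 tested genes of collagen modification and folding were higher and 2 lower. Fkbp10, a folding enzyme of the endoplasmic reticulum, rose (67.1, 62.8 and 41.2 CPM in tumour hearts, against 22.3, 26.4 and 23.6 CPM in control hearts; log2 1.24, adjusted p = 0.0390), as did the lysyl hydroxylase Plod2 (log2 1.56, adjusted p = 0.0464). The prolyl hydroxylase subunit P4ha2 fell (log2 -0.75, adjusted p = 0.0390), as did Colgalt2, which adds galactose to collagen (log2 -1.72, adjusted p = 0.0417). The 3 tumour libraries were on the same side of the controls for Fkbp10, P4ha2 and Colgalt2. Of the 18 genes, 4 lay above every control in this way and 2 below, beside 14.2% and 11.8% of all genes.

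Of 12 tested genes of propeptide removal and crosslinking, 2 were higher and 1 lower in tumour than in control hearts. Lox, the lysyl oxidase that starts collagen crosslinks, was at 50.0, 43.6 and 14.1 CPM in tumour hearts, against 4.21, 4.77 and 4.31 CPM in control hearts (log2 3.02 ± 0.45, adjusted p = 0.0303). The procollagen protease Adamts14 rose (log2 2.15, adjusted p = 0.0429) and Tll2, a protease of the tolloid family, fell (log2 -2.44, adjusted p = 0.0421). Of 14 tested genes of collagen breakdown and its inhibitors, 3 were higher and 1 lower. The inhibitor Timp1, at 40.1, 71.2 and 3.69 CPM against 1.82, 2.14 and 1.68 CPM, rose by 4.34 ± 0.81 (adjusted p = 0.0390). The metalloproteinases Mmp14 and Mmp3 rose (log2 1.88 and 1.82, adjusted p = 0.0390 for both) and Mmp15 fell (log2 -1.66, adjusted p = 0.0469).

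Of 12 tested fibril-binding genes, the fibronectin gene Fn1 was the 1 that rose (log2 2.13, adjusted p = 0.0465), at 553, 407 and 60.8 CPM in tumour hearts, against 76.3 to 79.7 CPM in control hearts. None of 8 collagen receptor, 13 basement membrane partner or 9 TGF-beta and regulator genes passed. The collagen chaperone Serpinh1, the matrix protein Sparc and the collagen receptor Ddr2 had log2 differences of -0.03, 0.51 and 1.13 (adjusted p = 0.116 to 0.955). Of all genes, 5.33% were higher and 1.46% lower. These calls did not survive the loss of most single libraries, an alternative added after the calls were seen. Of the 12 list genes called, 12 were called without tumour 3, beside 53% of all genes. Without tumour 1 it was 8 (1.55% of all genes), and without trained 2 Lox alone (0.0602%). Without any other library (the 3 control, 3 tumour trained, tumour 2, trained 1 and trained 3) it was 0, beside 0.03% to 0.181% of all genes.

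In tumour 3 against control hearts, the collagen chaperone Serpinh1 fell and the crosslinking enzyme Lox rose. Serpinh1, which binds newly made collagen helices, was at 120.0 CPM in tumour 3, against 291, 249 and 269 CPM in control hearts (log2 -1.16 ± 0.18, edgeR adjusted p = 0.0100). Colgalt2 also fell (log2 -1.13, adjusted p = 0.0255), so that 2 of 18 modification and folding genes were lower and none higher. Lox rose, 1 of 12 in its list (log2 1.68 ± 0.35, adjusted p = 0.0418). Mmp15 fell, 1 of 14 in the breakdown list (log2 -0.99, adjusted p = 0.0415), and Thbs2, a matricellular protein that binds fibrils, rose, 1 of 12 (log2 1.11, adjusted p = 0.0179), at 59.7 CPM against 28.8, 31.1 and 23.4 CPM in control hearts. Sparc, Timp1 and Ddr2 had -0.51, 0.98 and -0.37 (adjusted p = 0.125, 0.382 and 0.793). Of all genes, 0.87% were higher and 0.531% lower. Serpinh1 was called with any 1 of the other 9 libraries left out (adjusted p at most 0.0350), Thbs2 without any but control 3 (adjusted p = 0.0578). Colgalt2 lost its call without control 2 or any tumour trained library (adjusted p up to 0.0654), and Lox and Mmp15 lost theirs without any control or tumour trained library (adjusted p up to 0.126 and 0.102).

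In tumour trained against tumour hearts, 15 list genes passed, of which 14 are described here, beside 1.79% of all genes higher and 7.25% lower. In modification and folding, Fkbp10, P3h2 and P4hb fell (log2 -1.21, -1.86 and -0.83, adjusted p = 0.0357, 0.0373 and 0.0496) and Colgalt2 rose (log2 1.61, adjusted p = 0.0373). In crosslinking, Lox, Adamts14 and Loxl3 fell (log2 -2.37, -2.29 and -2.18, adjusted p = 0.0357 to 0.0408) and Tll2 rose (log2 2.58, adjusted p = 0.0357). In breakdown, Mmp14, Mmp3 and Timp1 fell (log2 -2.12, -1.90 and -3.76, adjusted p = 0.0357 for each). The collagen receptor Ddr1 fell (log2 -1.02, adjusted p = 0.0475), and in the fibril-binding list Fn1 fell and the small proteoglycan Ogn rose (log2 -2.54 and 2.01, adjusted p = 0.0357 for both). Lox was at 6.76, 6.15 and 7.89 CPM in tumour trained hearts, below each of the tumour hearts, tumour 3 included at 14.1 CPM. Of the 15 list genes, 15 were called without tumour 3 (beside 49.8% of all genes), 13 without trained 2 (9.34%) and 5 without tumour 1 (0.864%). Without any other library (the 3 control, 3 tumour trained, tumour 2, trained 1 and trained 3) it was 0, beside 0.0225% to 0.0602% of all genes.

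No gene of the 7 lists passed in trained against control, tumour trained against trained or tumour trained against control hearts. Of all genes, 0.00799%, 0% and 0.04% passed in these comparisons. In tumour trained against control hearts, Serpinh1 was at 191, 197 and 216 CPM, below each control at 291, 249 and 269 CPM (log2 -0.43 ± 0.12, adjusted p = 0.134). Lox, Sparc, Timp1 and Ddr2 had log2 differences of 0.64, -0.29, 0.58 and 0.55 (adjusted p = 0.158 to 0.334) in that comparison. In tumour trained hearts against tumour 3, Serpinh1 had 0.73 ± 0.18 (adjusted p = 0.0971).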

How the data were processed

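RNA of 12 mouse hearts was sequenced after Trizol extraction, per the labels' protocols, which name livers in the extraction step although the tissue label is heart. The authors deposited a table of estimated counts per gene. HISAT2 2.2.1 and featureCounts are named per the submitters' processing notes, which list both GRCm39 and mm10. Not given in the sources used here were annotation, strand and filters. Between 7.09% and 8.92% of a library's values were not whole, and all were rounded to whole numbers. Without stated strand, reads of overlapping genes cannot be told apart. In the gene names, 24 symbols that a spreadsheet had turned into dates were restored, and 17288 IDs were found in the RefSeq table of GRCm38.p6.

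Counts were scaled by TMM and tested with edgeR 4.0.16 (R 4.3.3) quasi-likelihood tests, with Benjamini-Hochberg adjustment over all genes tested and calls at an adjusted p below 0.05. Genes were filtered by filterByExpr on the groups. SE is the log2 fold change over the root of F. Tumour against control, tumour trained against tumour and the interaction came from all 12 libraries (8 residual degrees of freedom). Trained against control and tumour trained against trained or control came from the 9 libraries without the tumour group (6). Comparisons with tumour 3 came from the 10 libraries without tumour 1 and 2 (6). Alternatives were DESeq2 1.42.0, other scalings and filters, a replicate block, 2-group fits and each library left out. Comparisons that share libraries are not independent. Levels per kb used GENCODE M21 exon lengths, and promoter sequences are from RefSeq.

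No library pair of a group agreed within sampling noise (chi-square per gene 3.67 to 369.5), so none were merged. Library totals give counting precision only. The members, classes and gene lists were chosen with earlier results of these data known. Named whatever their result were the chains of types I, III, V, VI (Col6a1 to Col6a3), XII, XIV, XV and XVIII, Col8a1 and Col4a1 to Col4a5; then every collagen called, per comparison up to 3 collagens in each direction by log2 change with mean log2 CPM 1 or more, and up to 4 called genes per list with Serpinh1, Lox, Sparc, Timp1 and Ddr2. The result of 1 list gene is not reported here. The tests were checked on simulated counts. The left-out rows Col9a1, Col10a1, Col11a1 and Col19a1 enter no comparison.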

Additional observations from a re-analysis of the deposited data

Results flagged for a closer look

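Collagen genes left out for low counts had reads in tumour 1 and 2. Col10a1, a collagen of growth plate cartilage, had 42 counts in tumour 1 and 6 in tumour 2, Col9a1 had 32 counts in tumour 1, and Col11a1, a fibrillar collagen of cartilage, had 15 counts in tumour 1 and 11 in tumour 2. Each had at most 1 count in any control library.

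In a pair of low collagens the group means moved in opposite directions, which was seen after the fact and rests on means of about 2 CPM or less. For training, Col11a2 averaged 1.84 CPM in tumour trained and 1.98 CPM in tumour hearts, while it averaged 1.99 CPM in trained and 1.46 CPM in control hearts. The tumour mean was raised by tumour 1, with 3.47, 1.74 and 0.738 CPM in tumour 1, 2 and 3. Tumour trained hearts were at 1.69, 1.94 and 1.89 CPM. Every tumour trained heart was thus above tumour 3, the same direction as for training without melanoma. For the tumour, Col22a1 averaged 0.886 CPM in tumour trained and 0.498 CPM in trained hearts, while it averaged 0.492 CPM in tumour and 1.04 CPM in control hearts. The same means of Col22a1 give opposite directions for training. The interaction did not pass for either gene (edgeR adjusted p = 0.620 for Col11a2 and 0.323 for Col22a1).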

How the results depend on the processing

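Of 3758 recomputed values, 3448 counted as unchanged, 65 lost a call and 96 gained one. Another 145 counted as moved, and 4 that were called in either setting turned sign. A class median counted as moved when it shifted by more than its spread between libraries. A number of collagens called did so when it changed by more than a fixed ratio. A gene called in neither fit did so only when its sign changed and its shift exceeded its SE. Such a gene that kept its sign counted as unchanged, whatever its shift. Of the 145, 51 had the other sign, among them all 40 gene values, which by that definition had to. These included Col1a1 (-0.70), Col3a1 (-0.92) and Col5a2 (-0.61) in tumour against control hearts without tumour 1 and 2. With those libraries left out, the comparison is the one of tumour 3 with control hearts given above. For these genes tumour 1 and 2 lay above every control and tumour 3 below. The cause of that split between the tumour libraries was not tested.

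Collagens called changed with the tool and the libraries, as did the share of all genes called, given in brackets. In tumour against control hearts (1 called), they were 3 with DESeq2 (17.8%), 2 with DESeq2 size factors (5.68%), 3 with library size alone (15.4%), 2 with the stricter filter (6.1%), 0 in the fit of 2 groups (0.024%) and 3 without tumour 1 and 2 (1.4%). In tumour trained against tumour hearts (3 called) they were 7 with DESeq2 (18.6%), 5 with library size alone (13.2%), 0 in the fit of 2 groups (0.0159%) and 1 without tumour 1 and 2 (0.716%). The interaction (0 called) gave 1 without tumour 1 and 2 (0.246%). DESeq2 called 1 in tumour trained against trained (0.184%) and 4 in tumour trained against control hearts (3.64%; 0 called in both), where no filter gave 1 (0.143%) and the fit of 2 groups 8 (20.4%). DESeq2 called 6 in tumour 3 against control hearts (2.48%; 3 called), and 3 in tumour trained hearts against tumour 3 (2.04%; 1 called), where the fit of 2 groups gave 9 (18.2%).

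Without tumour 1 and 2, medians were -0.78 for fibrillar collagens in tumour against control hearts, 0.54 for fibrillar and 0.24 for basement membrane collagens in tumour trained against tumour hearts, and 0.59, 0.30 and 0.32 for fibrillar, basement membrane and other collagens in the interaction. Col6a3 and Col12a1 turned to -1.34 and -0.15 in tumour against control hearts, and Col1a2 and Col16a1 to 0.0563 and 0.00592 in tumour trained against tumour hearts. With library size alone, basement membrane medians were -0.14 in tumour trained against tumour hearts, -0.22 in the interaction (fibrillar -1.20), -0.52 in tumour trained against control hearts and 0.31 in tumour trained hearts against tumour 3. The median of other collagens in tumour trained against tumour hearts was -0.39 with no filter, -0.32 with the stricter one and -0.31 in the fit of 2 groups, and in tumour 3 against control hearts -0.72 with no filter. With type IV chains alone, basement membrane medians were -0.14 in tumour trained against trained, -0.37 in tumour trained against control and -0.52 in tumour 3 against control hearts.

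Same-numbered libraries did not pair: their deviations correlated at -0.27 to 0.24, with 3 of 18 pairs over 0.1 and 3 of 12 libraries closest to their own number. With the replicate block, collagens called were 0 in tumour against control (0.125%), 0 in tumour trained against tumour (0.141%), 1 in tumour 3 against control (0.454%), where Col6a2 lost its call (adjusted p = 0.0867), and 0 in tumour trained against tumour 3 (0.369%), where the basement membrane median was 0.18.

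With 1 library left out, collagens called ranged from 0 to 13 in tumour against control, 0 to 13 in tumour trained against tumour, 0 to 12 in the interaction, 0 to 9 in tumour trained against control, 1 to 11 in tumour 3 against control and 1 to 8 in tumour trained hearts against tumour 3. The highest values came without tumour 3 in those with the tumour group (53%, 49.8% and 30.1% of all genes in the order given) and without trained 2 in the others (22.4%, 5.8% and 11.8%). Medians ranged in the interaction from -0.12 to 0.35 (basement membrane), -1.30 to -0.61 (fibrillar) and -0.34 to 0.21 (other), and in tumour trained against tumour hearts from -0.10 to 0.20, -1.38 to -0.39 and -0.43 to -0.00782. Basement membrane medians ranged from -0.62 to -0.55 in tumour 3 against control, -0.59 to -0.43 in tumour trained against control and 0.12 to 0.33 in tumour trained against tumour 3. Other collagens ranged from -0.50 to -0.24 in tumour 3 against control and -0.19 to -0.0216 in trained against control hearts.

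Limits were 3 libraries a group, 1 library for tumour 3, melanocyte markers in tumour 1 and 2, trained 2 standing apart, and counts near the floor for collagens under 1 CPM.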
